A study of Homo sapiens with 12 samples.

Results

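The genes described here are 10 human host factors that restrict or bind the LINE-1 (L1) retrotransposon, out of 58735 genes in the deposited count tables. They were chosen as a named list and found by Ensembl identifier in GENCODE release 29. They comprise the cytidine deaminases APOBEC3B, APOBEC3C, APOBEC3F and APOBEC3G, the enzymes SAMHD1, TREX1 and RNASEH2A, the RNA-binding proteins MOV10 and ZC3HAV1, and the L1-derived gene L1TD1.

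The study sequenced RNA from HAP1 cells and from a derivative in which SETDB1, a histone methyltransferase that marks silent chromatin, was knocked out. HAP1 is a near-haploid adherent human line derived from a chronic myelogenous leukemia, and both genotypes were grown in IMDM with serum. Each genotype was prepared 3 times with the non-directional NEBNext Ultra II kit and 3 times with its directional version, which gave 12 libraries in 4 groups. The labels call the libraries biological replicates but do not say whether cultures were separate or how many knockout clones were used, so p-values measure the spread between these libraries. The comparison below is SETDB1 knockout against wild type in the 6 non-directional libraries.

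L1 elements copy themselves through an RNA that binds its own encoded proteins and is reverse-transcribed at a chromosomal target site. Host proteins act along this route. Deaminases and nucleic acid enzymes act on the RNA, the complementary DNA or the nucleotide supply, helicases and zinc-finger proteins bind the RNA, and L1TD1 is a domesticated relative of the L1 RNA-binding protein that is known from pluripotent cells.

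The non-directional libraries held 8921959 to 10199215 counts in genes. SETDB1 lay at 63.8, 60.9 and 55.2 counts per 1000000 gene counts (CPM) in wild type and at 12.1, 10.8 and 11.6 CPM in knockout (log2 fold change -2.39 ± 0.079 SE, adjusted p = 7.0e-43, edgeR quasi-likelihood test). With the median shift of its chromosome neighbourhood, -0.50, removed, its log2 fold change was -1.90. Of 13778 genes that passed the count filter, 51.5% passed an adjusted p of 0.05, made up of 25.5% that were higher and 25.9% that were lower in knockout. Wild-type replicate 2 stood apart from its group, with a chi-square per degree of freedom of 1.82 and 2.00 against replicates 1 and 3, whereas the 3 knockout libraries differed by less than sampling noise (0.956 to 0.991). Although the labels give a leukemic cell type, of 9 blood-lineage markers 8 had at most 2 counts in every non-directional library, and KIT averaged 18.8 CPM in wild type and 16.6 CPM in knockout.

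Of the 10 host factors, 7 passed the count filter, and 5 of those 7 passed the test, against the 51.5% of all genes given above. SAMHD1, ZC3HAV1 and L1TD1 were higher and APOBEC3C and MOV10 were lower in knockout. The changes spanned a 9.43-fold decrease of APOBEC3C to a 6.78-fold increase of L1TD1, and the median log2 fold change of the 7 was 0.20 against -0.0012 over all genes tested. At least 2-fold changes were called for 2 of the 7, APOBEC3C and L1TD1, and for 7.80% of all tested genes. Both genes passed the count filter only through the group where they were higher, since their other group held 4 to 6 counts per library. The CPM groups did not overlap for 6 of the 7, which includes APOBEC3F, and for 56.2% of all tested genes. In these bulk libraries fewer cells of a type and less RNA per cell cannot be told apart.

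**Figure D1:**
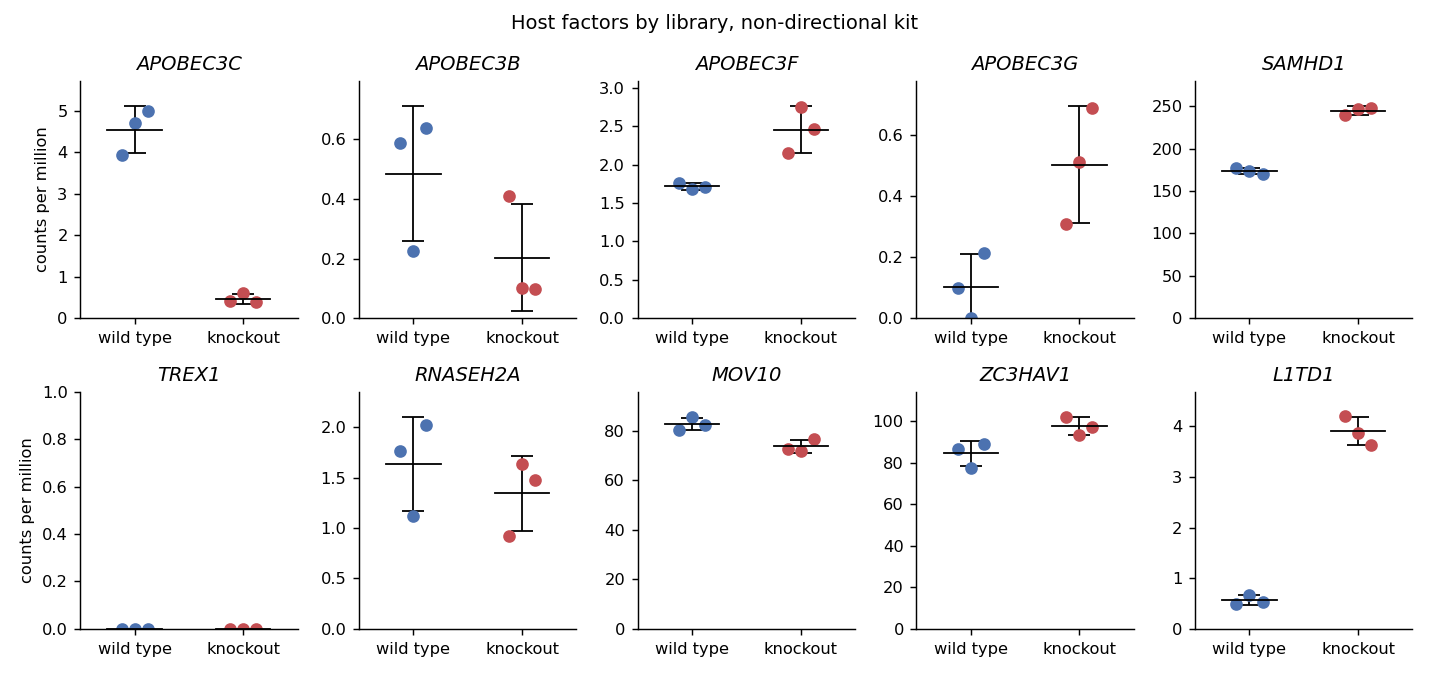
Level of each of the 10 host factors in CPM (vertical axes, each from 0 and with its own range) in the 3 wild-type and 3 knockout non-directional libraries; points are libraries, long bars the mean and whiskers the SD. APOBEC3C falls from 4.54 to 0.472 and L1TD1 rises from 0.565 to 3.90, while TREX1 is at 0 in every library.

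Compared per kilobase of exon not shared with another gene, SAMHD1 was the highest of the 10 in wild type at a level of 17.2 CPM per kb, ahead of MOV10 at 13.0 and ZC3HAV1 at 10.3 CPM per kb. A wide gap separated these from APOBEC3C at 1.62, RNASEH2A at 0.649, APOBEC3F at 0.529, APOBEC3B at 0.332, L1TD1 at 0.151 and APOBEC3G at 0.0191 CPM per kb. RNASEH2A overlapped with APOBEC3F across libraries, as did APOBEC3B with L1TD1. In knockout SAMHD1 stood at 24.3 CPM per kb, and L1TD1, at 1.04 CPM per kb, came next after ZC3HAV1 at 11.8 and MOV10 at 11.6 CPM per kb, whose libraries overlapped. APOBEC3C moved below APOBEC3F and RNASEH2A, to a level of 0.168 CPM per kb that overlapped with APOBEC3B at 0.140. TREX1 had no exon base of its own and no level on this scale. RNASEH2A had only 10 of 897 coding bases (1.11%) outside exons of other genes. Its level therefore rests mostly on noncoding exon sequence, and its place in either order is uncertain. The length used covers exons of all annotated transcripts, 10102 unshared bases for SAMHD1 against 5002 in its principal transcript, and 6364 against 3496 for MOV10. The order and overlaps given here depend on that choice.

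The 4 deaminase genes lie in 1 cluster on the plus strand of chromosome 22 (hg38), from APOBEC3B at chr22:38982347-38992804 over APOBEC3C at chr22:39014083-39020352 and APOBEC3F at chr22:39040604-39053910 to APOBEC3G at chr22:39077005-39087743. Their proteins hold a zinc-binding deaminase motif, found here by its residue pattern alone. In it a histidine and a glutamate are followed, after 23 to 28 residues, by a proline-cysteine pair. A final cysteine comes after 2 to 4 more residues. Whether each motif is catalytically active was not examined. APOBEC3C holds 1 such motif, in exon 3 of 4, and the other 3 genes hold 2 each, in exons 3 and 6. The coding sequences below, read from the reference genome, are shown because they bear on which gene a read can be assigned to. Capitals mark the codons from histidine to glutamate and from proline to the last cysteine.
APOBEC3C, exon 3, chr22:39017787-39017891: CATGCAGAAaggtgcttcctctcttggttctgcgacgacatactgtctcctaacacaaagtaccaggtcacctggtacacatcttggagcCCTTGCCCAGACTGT
APOBEC3F, exon 6, chr22:39052095-39052199: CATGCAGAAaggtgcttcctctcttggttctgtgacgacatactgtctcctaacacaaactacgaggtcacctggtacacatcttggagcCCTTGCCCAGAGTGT
APOBEC3F, exon 3, chr22:39044962-39045066: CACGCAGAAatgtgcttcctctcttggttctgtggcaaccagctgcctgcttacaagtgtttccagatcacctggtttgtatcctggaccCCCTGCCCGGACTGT
APOBEC3B, exon 3, chr22:38985833-38985937: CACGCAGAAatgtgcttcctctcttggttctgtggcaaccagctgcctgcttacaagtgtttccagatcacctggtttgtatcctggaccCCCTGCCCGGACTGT
The exon 3 motifs of APOBEC3F and APOBEC3B are the same 105 bases. The exon 6 motif of APOBEC3F is identical to that of APOBEC3C over 96.2% of its bases. The second motif of APOBEC3B and both motifs of APOBEC3G were 55.9% to 65.7% identical to the APOBEC3C motif.

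Over whole principal transcripts, 51.4% of the 50-base windows of APOBEC3B occurred unchanged in transcripts of other genes, with APOBEC3A holding the most of them. The share was 24.2% for APOBEC3F, 19.1% for APOBEC3G and 1.30% for APOBEC3C. Counts of APOBEC3B, APOBEC3F and APOBEC3G are therefore uncertain, because reads that align equally well to a paralog leave unique counts. In each non-directional library 6.86% to 7.19% of reads did not align uniquely.

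APOBEC3C, a single-domain deaminase known to reduce L1 retrotransposition in cultured cells, fell in the knockout. It had 40, 42 and 47 counts in wild type (3.92, 4.71 and 5.00 CPM) and 4, 6 and 4 counts in knockout (0.409, 0.612 and 0.394 CPM). Every knockout library lay far below every wild-type library, but the knockout levels sat just above the floor described below for APOBEC3G. The knockout to wild-type ratio of summed counts was 0.104, with a 95% counting interval of 0.0554 to 0.181. The log2 fold change was -3.24 ± 0.31 (SE; edgeR, adjusted p = 1.4e-15), a 9.43-fold decrease from 4.54 ± 0.558 to 0.472 ± 0.122 CPM (SD, n = 3). Leaving out wild-type replicate 2 gave -3.21.

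APOBEC3F, a double-domain relative known for editing retroviral DNA, had 18, 15 and 16 counts in wild type and 21, 27 and 25 counts in knockout. All knockout libraries lay above all wild-type libraries, at 2.46 ± 0.303 against 1.72 ± 0.0434 CPM (SD, n = 3), but the difference did not pass the test (log2 fold change 0.50 ± 0.26 SE, 95% interval -0.0064 to 1.01, adjusted p = 0.099, edgeR). APOBEC3B, a nuclear deaminase, had 6, 2 and 6 counts in wild type and 4, 1 and 1 in knockout. These groups overlapped, the gene did not pass the count filter, and the knockout to wild-type ratio of summed counts was 0.411 with a counting interval of 0.129 to 1.14.

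APOBEC3G, the deaminase best known for restricting HIV, had 1, 0 and 2 counts in wild type and 3, 5 and 7 in knockout. The groups did not overlap, although 5.05% of the 15171 genes that failed the count filter were likewise higher in every knockout library. The ratio of summed counts was 4.80, with a 95% counting interval of 1.36 to 25.8. With the filter removed, APOBEC3G passed the edgeR test at a log2 fold change of 2.12 ± 0.81 (SE, adjusted p = 0.036), as did 24.6% of the 28949 genes then tested, whereas the DESeq2 Wald test gave 2.26 with an adjusted p of 0.18. A count of 3, which is the limit that a count of 0 allows, equals 0.294 to 0.336 CPM in these libraries, so levels of APOBEC3G and APOBEC3B lie near the floor. Intervals and floors cover counting error only.

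The remaining deaminases of the cluster were nearly silent. APOBEC3A and APOBEC3H had 0 counts in all 6 libraries, and APOBEC3D had at most 1, so none of these 3 genes could be tested. The nearest tested genes outside the cluster were CBX6 and CBX7, which encode Polycomb proteins. CBX6, 141769 bases before APOBEC3C, was lower (72.1 ± 3.74 to 49.0 ± 2.05 CPM, log2 fold change -0.56, adjusted p = 3.4e-15, edgeR). CBX7, beyond APOBEC3G, was higher (1.06 ± 0.243 to 1.81 ± 0.134 CPM, log2 fold change 0.77, adjusted p = 0.035, edgeR), a call that was lost under 7 of 14 other fits, such as the DESeq2 Wald test (adjusted p = 0.27). APOBEC3C was therefore flanked by APOBEC3F, which was not called, and by CBX6, which was lower by less, and the median log2 fold change of tested genes within 5 Mb was -0.030.

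Across the 6 libraries the genes whose log2 CPM profiles lay closest to that of APOBEC3C, by Euclidean distance, were RASGRP1 (distance 0.502), WWOX (0.530) and the lincRNA AC092127.2 (0.644). RASGRP1 went from 4.26 ± 0.403 to 0.574 ± 0.218 CPM, and WWOX from 5.27 ± 0.450 to 0.438 ± 0.0632 CPM (SD, n = 3). Neither lies on chromosome 22. Likeness over 2 groups of 3 libraries is a description only.

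SAMHD1, which hydrolyses deoxynucleotides and restricts reverse transcription, rose in the knockout. The gene lies on the minus strand at chr20:36889773-36951901. It lay at 177.1, 173.5 and 170.1 CPM in wild type and at 239.5, 247.0 and 248.6 CPM in knockout. Each group was tight and the groups were well apart. The log2 fold change was 0.49 ± 0.034 (SE; edgeR, adjusted p = 2.1e-22), a 1.40-fold increase, and its flanking tested genes SOGA1 and RBL1 were not called (-0.06 and -0.11). SAMHD1 shares exon bases with TLDC2 on the opposite strand, which the non-directional kit cannot separate, but TLDC2 had at most 2 counts in any of these 6 libraries.

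TREX1, the main cytoplasmic DNA exonuclease, had 0 counts in all 12 libraries. Its exons at chr3:48465811-48467645 lie entirely inside those of ATRIP on the same strand, so that 0% of its coding bases can single it out and 100% of its 50-base windows occur in ATRIP transcripts. ATRIP, which encodes a partner of the checkpoint kinase ATR, lay at 35.2 ± 2.48 CPM in wild type and 33.0 ± 2.79 CPM in knockout (log2 fold change -0.11, adjusted p = 0.21, edgeR). The zero of TREX1 therefore gives no expression level.

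RNASEH2A, the catalytic subunit of the ribonuclease that cuts RNA in RNA-DNA hybrids, is limited in the same way. Its exons at chr19:12806556-12815201 share all but 10 of 897 coding bases (1.11%) with THSD8, which leaves mostly noncoding exon sequence to single it out. It had 18, 10 and 19 counts in wild type and 9, 16 and 15 in knockout, and the groups overlapped. The log2 fold change was -0.30 ± 0.31 (SE, 95% interval -0.91 to 0.31, adjusted p = 0.45, edgeR), so neither a moderate decrease nor a small increase could be told from no change.

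**Figure D2:**
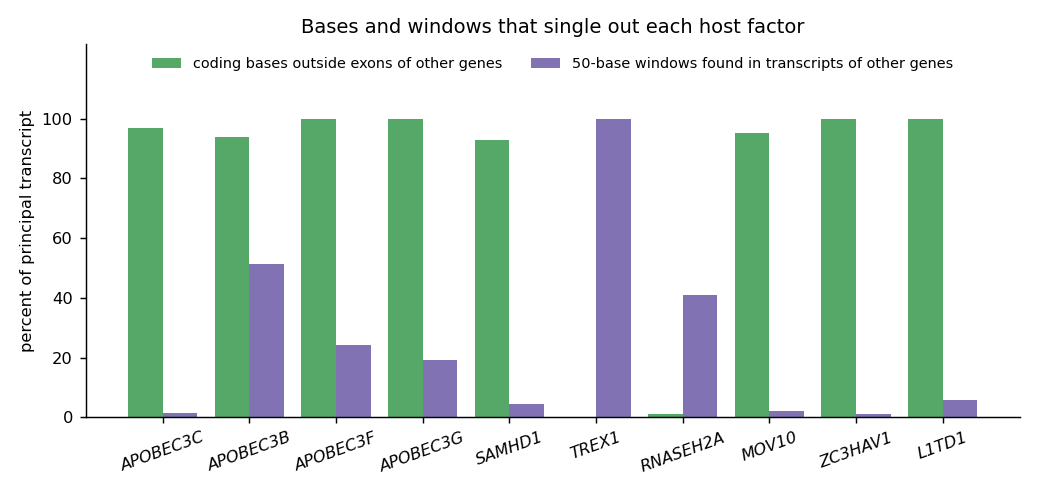
Percent of coding bases of each principal transcript that lie outside exons of all other genes (green bars) and percent of its 50-base windows found unchanged in transcripts of other genes (purple bars), on a vertical axis from 0. TREX1 (0% and 100%) and RNASEH2A (1.11% and 41.0%) can hardly be counted as separate genes, and APOBEC3B shares 51.4% of its windows.

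MOV10, an RNA helicase that binds L1 RNA and lowers retrotransposition, fell slightly. The gene lies on the plus strand at chr1:112673141-112700746. It lay at 80.5, 85.5 and 82.2 CPM in wild type and at 72.5, 71.7 and 76.8 CPM in knockout, without overlap. The log2 fold change was -0.17 ± 0.048 (SE; edgeR, adjusted p = 0.0015), a 1.13-fold decrease, while its neighbours CAPZA1 and RHOC were not called (-0.02 and 0.12).

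ZC3HAV1, the zinc-finger antiviral protein that recruits decay factors to CpG-rich RNA, rose slightly. The gene lies on the minus strand at chr7:139043520-139109719. It lay at 86.9, 77.4 and 89.2 CPM in wild type and at 102.2, 93.5 and 97.1 CPM in knockout. The groups did not overlap, and wild-type replicate 2 was the lowest of the 6. The log2 fold change was 0.20 ± 0.047 (SE; edgeR, adjusted p = 2.2e-04), and 0.14 (adjusted p = 0.0040) without that library. The adjacent paralog ZC3HAV1L was lower by 0.34 on the log2 scale and TTC26 on the other side was higher by 0.27, with edgeR adjusted p-values of 0.013 and 0.0080, and the DESeq2 Wald test called neither (adjusted p = 0.17 and 0.12). The ZC3HAV1L call was also lost without knockout replicate 1 (0.11) or wild-type replicate 3 (0.13).

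L1TD1 rose the most of the 7 tested factors. The gene lies on the plus strand at chr1:62194831-62212328. It had 5, 6 and 5 counts in wild type (0.490, 0.672 and 0.532 CPM) and 41, 38 and 37 counts in knockout (4.20, 3.88 and 3.64 CPM). The wild-type libraries sat just above the floor and every knockout library lay well above them. The log2 fold change was 2.76 ± 0.30 (SE; edgeR, adjusted p = 9.0e-13), a 6.78-fold increase, and 2.90 without wild-type replicate 2. The flanking genes did not rise with it. PATJ on the left was not called (-0.16), and USP1 on the right was lower by 0.22 on the log2 scale (adjusted p = 1.0e-06, edgeR).

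**Figure D3:**
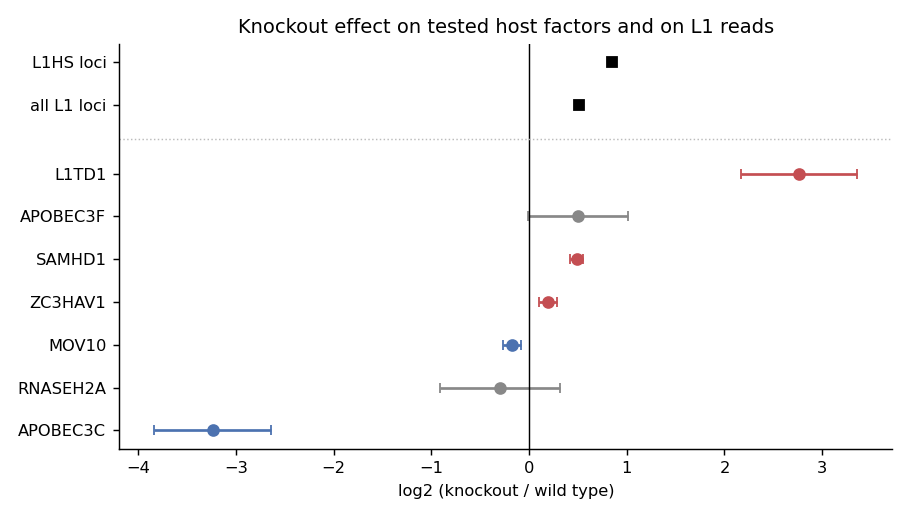
Log2 ratio of knockout to wild type (horizontal axis) for the 7 tested host factors, with 95% intervals from the edgeR fit (red higher, blue lower, grey not called), and for L1 reads per 1000000 gene counts (black squares, no interval). L1TD1 at 2.76 and APOBEC3C at -3.24 stand far from the others. On this scale SAMHD1 at 0.49 lies beside the total of all L1 loci at 0.51. On the deposited normalized values, not drawn, that total was 0.15.

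The L1 tables of the same libraries list 6437 loci of the subfamilies L1HS and L1PA2 to L1PA8. The non-directional kit does not give the strand of these reads. Neither the part of RNA from surrounding genes nor the sharing of reads between similar copies was tested. In reads per 1000000 gene counts, all loci together gave 3053, 2887 and 2981 in wild type and 4265, 4232 and 4196 in knockout. The groups did not overlap. The log2 difference was 0.51, a ratio of 1.42, with a two-sided exact permutation p of 0.1, the smallest that 3 against 3 allows. The sums of the deposited normalized values gave a smaller difference of 0.15. For L1HS, the youngest subfamily, the values were 199.6, 176.6 and 177.8 in wild type and 332.6, 344.5 and 319.5 in knockout, a log2 difference of 0.85 with the same p, and 0.49 on the deposited values. The other subfamilies lay between 0.11 (L1PA6) and 0.95 (L1PA2), and L1PA5 to L1PA8 were below 0 on the deposited values, at -0.24 to -0.0096.

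Per 1000 L1 reads instead of per gene counts, 2 of the 7 tested factors had overlapping groups. SAMHD1 gave 58.0, 60.1 and 57.1 counts per 1000 L1 reads in wild type and 56.2, 58.4 and 59.2 in knockout, and these groups overlapped. APOBEC3F overlapped too, with means of 0.577 ± 0.0055 and 0.580 ± 0.074 counts per 1000 L1 reads (SD, n = 3). MOV10 went from 27.9 ± 1.64 to 17.4 ± 0.762 counts per 1000 L1 reads and ZC3HAV1, although higher in CPM, from 28.4 ± 1.55 to 23.1 ± 0.942. These ratios divide reads by reads within a library, and they depend on that choice. When CPM was divided by the deposited L1 sums, which carry their own scaling, the knockout to wild-type ratio was 1.27 for SAMHD1 and 1.28 for APOBEC3F without overlap, and 1.04 for ZC3HAV1 with overlap.

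L1TD1 was higher on this scale as well, at 0.923 ± 0.058 against 0.191 ± 0.038 counts per 1000 L1 reads (SD, n = 3), and APOBEC3C was lower, at 0.111 ± 0.029 against 1.53 ± 0.215. RNASEH2A had non-overlapping groups on this scale, though neither in CPM nor against the deposited sums, at 0.318 ± 0.090 in knockout and 0.548 ± 0.147 in wild type. Groups did not overlap for 5 of the 7 tested factors, against 84.5% of all tested genes, whose denominator moves between the groups. With 2 groups of 3 libraries no correlation between a host factor and the L1 total was computed.

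**Figure D4:**
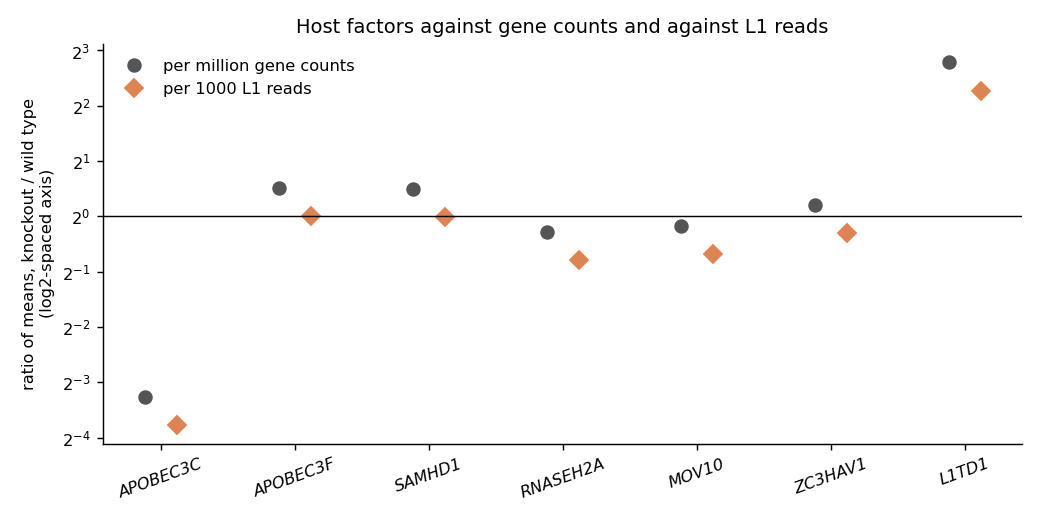
Ratio of the knockout mean to the wild-type mean (vertical axis, log2-spaced) for the 7 tested host factors, as CPM (grey circles) and as counts per 1000 L1 reads (orange diamonds). SAMHD1 moves from 1.41 to 0.992 and APOBEC3F from 1.43 to 1.01 between scales, and ZC3HAV1 from 1.15 to 0.812.

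None of the 6437 loci lay within 100 kb of a host factor. The nearest to L1TD1 was an L1PA5 copy at a distance of 245.6 kb, and the nearest to APOBEC3G was an L1PA7 copy at 4046 kb. Of the 816 loci with enough signal to test, 28.4% passed with limma on the deposited values and 34.4% with edgeR on recovered reads, and none of them lay beside a host factor.

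A further 39 host genes tied to L1 were counted in 6 lists. Of these, 31 were tested and 17 passed, 7 as higher and 10 as lower, against the 51.5% of all genes given above. At least 2-fold changes were called for 2 of the 31, against 7.8% of all tested genes. The counts of each list below stand beside 25.5% of all tested genes called higher and 25.9% called lower. No list was tested as a set.

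The list of interferon-linked inhibitors and ZC3HAV1 cofactors had 4 genes tested, of which 3 fell and none rose. BST2, the membrane protein tetherin, went from 144.6 ± 2.83 to 52.8 ± 1.25 CPM (-1.46 ± 0.045 SE, adjusted p = 1.0e-44, edgeR). KHNYN, a nuclease cofactor of ZC3HAV1, fell by 0.36 on the log2 scale, and TRIM25, its ubiquitin ligase cofactor, lay at -0.06 and was not called. TRIM5 fell by 0.23 on the log2 scale, but DESeq2's Wald test (adjusted p = 0.13) and the edgeR fit without knockout replicate 3 (0.053) did not call it.

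In the list of other genes mutated in Aicardi-Goutières syndrome, the inflammatory disorder also caused by TREX1, SAMHD1 and RNASEH2A mutations, 2 of 3 tested genes fell. ADAR, an RNA editing enzyme, went from 533.5 ± 2.21 to 388.5 ± 3.89 CPM (log2 fold change -0.47, adjusted p = 1.0e-26, edgeR), but it lies in a stretch of chromosome 1 where the median of tested genes within 5 Mb was -0.51, and with that local shift removed it gave 0.05 (adjusted p = 0.15). RNASEH2C, a structural partner of RNASEH2A, fell by 0.42 on the log2 scale (adjusted p = 1.6e-05), and RNASEH2B did not pass (-0.0034, adjusted p = 0.97). The RNA sensor IFIH1, named after its values were seen, did not pass the count filter, with 8, 16 and 14 counts in wild type and 2, 0 and 1 in knockout. Without the filter its log2 fold change was -3.57 ± 0.59 (SE; edgeR, adjusted p = 2.1e-08), and the DESeq2 Wald test gave an adjusted p of 0.0016. Of genes that failed the filter, 5.21% were lower in every knockout library.

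Among 12 partners of the L1 particle, all tested, 1 rose and 3 fell. PURA was lower (log2 fold change -0.34, adjusted p = 7.0e-05, edgeR). It kept its call in all 14 other fits, with a largest adjusted p of 0.011 (DESeq2 Wald test). The ZCCHC3 call (adjusted p = 0.048, edgeR) was lost under 8 of 14 other fits, and that of PABPC1, the gene that rose, in 1 fit over 12 libraries (adjusted p = 0.31). PARP1 had the smallest p, with a log2 fold change of -0.40 (adjusted p = 5.5e-27, edgeR), and it too lies where neighbouring genes were lower, since removing the local median of -0.43 left 0.03 (adjusted p = 0.31). Of 6 DNA repair factors, 2 rose, with ATM at 0.30 (37.9 ± 2.17 to 47.1 ± 1.39 CPM, adjusted p = 2.6e-05, edgeR) having the smaller p, and none fell. The other, FANCM (0.20), was lost under 6 of 14 other fits.

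The 8 pluripotency genes linked to L1TD1 had 6 tested, 4 of them higher and 2 lower. LIN28A, the RNA-binding protein that L1TD1 is known to accompany, had 88, 66 and 69 counts in wild type and 412, 414 and 392 in knockout. It rose 5.21-fold (log2 fold change 2.38 ± 0.093 SE, adjusted p = 8.3e-38, edgeR), and whether this differs from the rise of L1TD1 was not tested. DNMT3B, LIN28B and DPPA4 rose by 0.43, 0.39 and 0.16 on the log2 scale, whereas SOX2 and POU5F1 fell by 0.13 and 0.11. The POU5F1 call was lost when the knockout libraries were summed to 1 (edgeR, adjusted p = 0.070). NANOG and SALL4 had at most 8 counts in any of these libraries and were not tested. Cell type markers of the same libraries moved both ways. EPCAM (log2 fold change 3.40) and KRT8 (0.47) were higher in knockout, and DAZL (-2.85) and CDH2 (-0.45) were lower. KRT18 (-0.10) and VIM (-0.05) were not called, and CDH1 failed the count filter (-1.41 without it). The part of these markers in the values above was not tested.

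**Figure D5:**
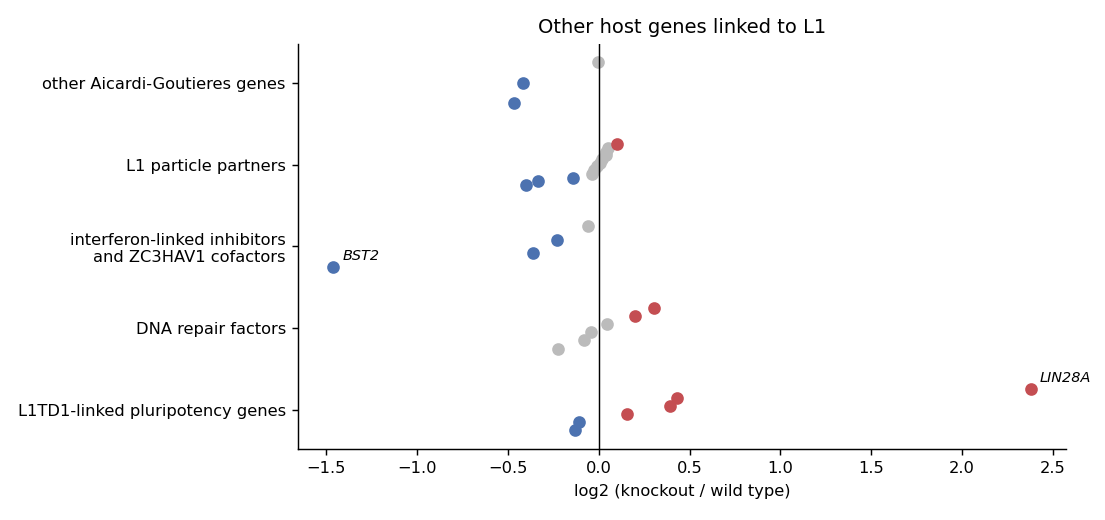
Log2 ratio of knockout to wild type (horizontal axis) for each of the 31 tested genes of the further lists (rows; the list of other APOBEC3 genes had none tested), with red for higher, blue for lower and grey for not called; vertical offsets within a row only separate points. BST2 at -1.46 and LIN28A at 2.38 are the 2 genes beyond 2-fold.

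The directional libraries could not serve as a second measurement of the host factors. They held 532021 to 676691 counts in genes, which is 5.23% to 5.30% of their reads, and 94.6% of reads in each fell in no annotated feature. APOBEC3B, APOBEC3G, TREX1 and RNASEH2A had 0 counts in all 6 of them, and SAMHD1 had 7 to 10. Of 4745 genes testable there, 16.2% passed. AL603832.1, which overlaps MOV10 on the opposite strand, had 51 to 86 counts in these libraries and at most 2 in the non-directional ones, and was at 125.2 CPM in wild type and 95.5 CPM in knockout (log2 fold change -0.39, adjusted p = 0.054, edgeR). The strand setting used to count them is not given in the sources used here, and its part in these values was not tested.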

How the data were processed

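Whole-gene counts of 12 libraries were deposited by the authors as raw counts per Ensembl gene. The submitters' processing notes name Trim Galore 0.4.4, STAR 2.6.0a, SAMtools 1.9, Picard 2.23.8, HTSeq 0.11.1, DESeq2 and bedtools with hg38. The authors' L1 tables of the 6 non-directional libraries hold a normalized signal, counts divided by a factor per library. Whole reads were recovered from 100% of values within a tolerance of 0.01 reads. The design foresaw either raw or normalized L1 values. All 58735 gene identifiers matched GENCODE 29. HTSeq's summary lines were kept out of library sizes. Reads ambiguous between overlapping genes made up 8.37% to 8.41% of each non-directional library and entered no gene, which lowers genes such as TREX1 and RNASEH2A.

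Genes past filterByExpr (minimum count 10, minimum total 15) were tested in edgeR 4.0.16 with TMM scaling and the quasi-likelihood F-test, with genotype as the only term and Benjamini-Hochberg adjustment over all 13778 genes. Calls used an adjusted p under 0.05. L1 loci were fitted with limma 3.58.1 on log2(deposited value + 1) and, on recovered reads, with edgeR. R 4.3.3, DESeq2 1.42.0 and scipy 1.17.1 were also used, and the fits were tested on simulated data. Ratios of summed counts carry exact conditional 95% intervals. Per-kilobase levels divide CPM by exon bases not shared with another gene. Alternatives covered scaling, filter, tool, replicate block, samples in the fit, knockout libraries summed to 1, local chromosome shift, call rule and each library left out. An edgeR fit of opposite-strand genes in the directional libraries, and CPM over deposited L1 sums, were added after seeing the data.

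The knockout libraries differed by less than sampling noise from each other and were kept as 3. Deviations of same-numbered libraries from their group means correlated at -0.00124, -0.00451 and -0.0249, so no shared deviation was seen. With knockout libraries this alike, the check cannot show whether same-numbered libraries were handled together. The members and lists were chosen with earlier results of these data known. Named genes were SETDB1, the 10 host factors, their nearest tested neighbours, the 3 genes most like the most changed host factor, list genes called at 2-fold or more and otherwise the smallest adjusted p of each list; further list genes are given with counts of their list. One gene of the further lists is not reported here and is left out of their counts.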

Additional observations from a re-analysis of the deposited data

Results flagged for a closer look

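One value outside the main comparison stood out. TLDC2, a gene on the strand opposite SAMHD1 that overlaps its exons, had a signal in the directional tables that the non-directional tables lack, and it was above the wild-type level in the knockout. It had 165, 173 and 165 counts in wild type and 244, 218 and 204 in knockout, or means of 278.2 and 381.1 CPM, against at most 2 counts in any non-directional library. The groups did not overlap (log2 fold change 0.46 ± 0.090 SE, adjusted p = 4.4e-05, edgeR fit of the directional libraries). The exact permutation p over the 3 against 3 libraries was 0.1, the smallest possible. SAMHD1 itself changed by 0.49 in the non-directional libraries. In the directional libraries SAMHD1 had 7 to 10 counts. How reads of the 2 strands were assigned in the directional tables, and so whether these counts come from TLDC2 RNA, was not tested.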

How the results depend on the processing

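The number of host factors called was 5 in the reported fit, in every fit that left out 1 library and under DESeq2's Wald test, DESeq2 size factors, library totals without TMM, removal of the local chromosome shift, knockout libraries summed to 1 and 1 fit over 12 libraries. It was 6 without the count filter, which added APOBEC3G, and 2 when a 2-fold change was also required. The further L1-linked genes called numbered 17, with 15 to 20 under the other settings and over leave-one-out fits, and 2 with the 2-fold rule. The fit with the replicate block called 5 host factors and 18 further genes. Of 104 values of host factors under other settings, 101 kept direction and side of the threshold, and 3 kept only direction, which are SAMHD1, MOV10 and ZC3HAV1 under the 2-fold rule. Over the 14 other fits MOV10 ranged from -0.23 to -0.15 (largest adjusted p 0.041, DESeq2 Wald test) and ZC3HAV1 from 0.14 to 0.27 (largest adjusted p 0.023). SETDB1 ranged from -2.45 to -1.90, the latter with the local shift removed. The ratio of ZC3HAV1 against L1 was 0.812 on reads and turned to 1.04 with CPM over deposited L1 sums, a setting chosen after seeing the data. The L1 difference of 0.51 was 0.15 on deposited sums, 0.50 with TMM, 0.51 within replicate numbers and 0.49 to 0.53 without 1 library, where no p can go below 0.2. Alternatives for L1 loci near host factors gave no value, because no locus lies within 100 kb of one. Depth limits APOBEC3B and APOBEC3G, and shared exons limit TREX1 and RNASEH2A.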

Other observations

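Several markers of cell type differed between the genotypes. EPCAM, an epithelial adhesion molecule, had 29, 32 and 45 counts in wild type and 399, 386 and 394 in knockout (log2 fold change 3.40 ± 0.11 SE, adjusted p = 1.3e-42, edgeR). KRT8, an epithelial keratin, rose from 83.1 ± 6.19 to 115 ± 4.15 CPM (0.47), and CDH2, the neural cadherin, fell from 132.7 ± 0.879 to 97.5 ± 0.385 CPM (-0.45). KRT18 and VIM did not pass the test, at -0.10 and -0.05. CDH1, the epithelial cadherin, failed the count filter with 8, 12 and 11 counts in wild type and 3, 8 and 1 in knockout (without the filter -1.41, edgeR adjusted p = 0.010, and DESeq2 Wald adjusted p = 0.15). The germ cell RNA-binding gene DAZL fell from 8.51 ± 0.990 to 1.18 ± 0.308 CPM (-2.85 ± 0.21 SE, adjusted p = 1.4e-20, edgeR), whereas L1TD1 and LIN28A, known from pluripotent and germ cells, were higher in the same libraries. Of 6 epithelial or adherent markers 5 were tested, with 2 higher and 1 lower, near the 51.5% of all tested genes that were called, and both tested pluripotency or germ cell markers, POU5F1 and DAZL, were lower, POU5F1 not when the knockout libraries were summed to 1 (edgeR adjusted p = 0.070). The part of cell state in the host factor values was not tested.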
